A study of Mus musculus with 27 samples.

Results

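The 6 myosin heavy chain genes of skeletal muscle fibres, Myh3, Myh8, Myh4, Myh1, Myh2 and Myh7, were followed through the repair of mouse muscle after injury. They were taken by gene name, and all 6 were found in both deposited tables, among 55852 entries in the table of injured muscle and 55677 in the table with control muscle. The muscle came from male C57BL/6J WT mice and from male mice whose titles read KO. By the study's account the KO mice are a global Gsdme knockout, although their genotype entry reads knockdown. Gsdme codes for gasdermin E, a protein that perforates membranes after caspase cleavage. All injured muscle had received cardiotoxin (CTX), a cobra toxin that destroys muscle fibres, and it was sampled at day 1 (D1), day 4 (D4), day 7 (D7) or day 14 (D14), 3 libraries for each of the 8 groups. The other 3 libraries are uninjured WT muscle, called control here, which the study took from the opposite leg of injured mice. The labels speak of biological triplicates but name no animals, and the age of the mice is not given in the sources used here. Injection into the thigh and harvest of the gastrocnemius are both named in the labels, and the study's methods name the gastrocnemius for both.

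A myosin heavy chain is the motor protein of the thick filament, and the type of heavy chain sets how fast a fibre contracts. Adult mouse limb muscle uses the IIb chain (Myh4) and the IIx chain (Myh1) in fast glycolytic fibres, the IIa chain (Myh2) in fast oxidative fibres and the slow or type I chain (Myh7) in slow fibres, which is also the beta chain of the heart. The embryonic chain (Myh3) and the neonatal or perinatal chain (Myh8) are made before birth and again in fibres that form anew after injury, and they are then replaced by the adult chains. Values below are TPM, a relative transcript abundance per transcript length that sums to the same total in every library, so that levels of different genes can be set side by side. In bulk muscle, fewer cells of a type and less RNA per cell cannot be told apart.

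In mm10 coordinates with the GENCODE annotation, 5 of the 6 genes lie on the plus strand of chromosome 11 in the order Myh3 (chr11:67078300-67102291), Myh2 (chr11:67171027-67197517), Myh1 (chr11:67200052-67224575), Myh4 (chr11:67238029-67260446) and Myh8 (chr11:67277124-67308634). Myh7 lies on the minus strand of chromosome 14 (chr14:54970684-54994626). Myhas, an antisense noncoding RNA gene (chr11:67211256-67237573, minus strand), covers 13320 bases of Myh1, and 515 exonic bases of Myh1 lie in exons of Myhas. The use of strand in counting is not given in the sources used here, so that reads of Myh1 and Myhas may have been mixed. The coding sequences are near copies of each other. Myh1 and Myh2 were 91.1% identical, Myh4 and Myh1 90.2%, Myh8 and Myh1 89.4%, Myh3 and Myh8 81.5%, and Myh3 and Myh7 77.6%. Of all runs of 100 coding bases, 9.88% of those in Myh1, 9.58% in Myh2, 5.48% in Myh8 and 3.99% in Myh4 stood letter for letter in another of the 6 genes, against 0 in Myh3 and Myh7. Of runs of 50 bases, 3.79% of those in Myh3 and 0.226% in Myh7 did so. Reads in such runs could have been given to another copy. By this measure alone, levels of Myh1, Myh2, Myh4 and Myh8 are less certain than those of Myh3 and Myh7. Only the 6 genes were compared, so runs shared with other genes, such as Myh6 beside Myh7 on chromosome 14, are not counted.

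The 250 bases before the start of Myh3, Myh8 and Myh4 are shown because the first pair rose and fell together and the last is the most abundant adult chain. They were read from RefSeq on mm10, plus strand, at chr11:67078050-67078299, chr11:67276874-67277123 and chr11:67237562-67237811, and run 5′ to 3′ up to the start that RefSeq gives, which for Myh4 lies before the GENCODE start. Capitals mark matches, on either strand, to an E-box (CANNTG, the site of MyoD and related factors), a MEF2 box, a CArG box or the sequence CATTCC, which is the core of an M-CAT element.
Myh3: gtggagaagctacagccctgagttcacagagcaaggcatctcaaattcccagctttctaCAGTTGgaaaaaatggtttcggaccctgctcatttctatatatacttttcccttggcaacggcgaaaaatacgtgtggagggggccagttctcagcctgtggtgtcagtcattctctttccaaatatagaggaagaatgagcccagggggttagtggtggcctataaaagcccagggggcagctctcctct
Myh8: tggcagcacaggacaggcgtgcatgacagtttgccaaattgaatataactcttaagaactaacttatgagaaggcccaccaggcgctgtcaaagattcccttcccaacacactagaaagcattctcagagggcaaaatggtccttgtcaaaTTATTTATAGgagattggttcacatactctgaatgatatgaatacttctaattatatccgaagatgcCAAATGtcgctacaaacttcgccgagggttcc
Myh4: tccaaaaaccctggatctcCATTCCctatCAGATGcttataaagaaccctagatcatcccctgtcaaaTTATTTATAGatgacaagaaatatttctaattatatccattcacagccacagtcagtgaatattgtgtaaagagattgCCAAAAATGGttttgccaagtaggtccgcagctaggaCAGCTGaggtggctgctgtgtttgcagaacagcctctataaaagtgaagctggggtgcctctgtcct
Myh3 held 1 E-box and none of the other 3 motifs in this window. Myh8 held 1 E-box, 32 bases before the start, and 1 MEF2 box, 99 bases before it. Myh4 held 2 E-boxes, 1 MEF2 box, 1 CArG box and 1 M-CAT. Of 32851 RefSeq promoter windows of this length, 66.2% held an E-box, 12.6% an M-CAT, 2.92% a MEF2 box and 1.47% a CArG box. The run ttctaattatatcc, of 14 bases, stood before Myh1, Myh2, Myh4 and Myh8 and in no other window of that set, 54 bases before the start of Myh8 and 158 before that of Myh4. It was not in the Myh3 window, and it was picked after the windows had been seen. These are matches of letters, and no binding was measured.

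Gsdme was at 2.76 to 4.85 TPM in WT D1 and 1.28 to 2.17 in KO D1, and on D4 at 2.63 to 3.02 in WT and 1.00 to 1.64 in KO. On D7 it was at 1.80 to 2.51 in WT and 0.95 to 1.37 in KO, and on D14 the 1.46 to 2.26 of WT overlapped the 1.27 to 1.96 of KO. Markers of skeletal fibres such as Ckm were high in every library, and the 4 cardiac markers summed to at most 7.67 TPM in any library. Correlations between replicates of a group were 0.913 to 0.977 across genes. The libraries KO D4 replicate 2 and KO D7 replicate 2 stood apart. They had 12961 and 12849 genes at 1 TPM or more, against 13816 to 14704 in the other 10 libraries of D4 and D7, and their summed leukocyte markers were 432.5 and 456.1 TPM, against 1143 to 5283. They were singled out after the values had been seen, in part for their low Myh3 and Myh8, so that values without them lean towards higher Myh3 and Myh8 in KO by the way they were chosen. The main results that rest on them are given with and without both, or without 1 of them. On D1, WT D1 replicate 3 differed in the same direction. It had 13105 genes at 1 TPM or more, against 13600 to 14033 in the other D1 libraries. Its leukocyte markers summed to 814.2 TPM, against 2434 to 4377. It was left out only singly.

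Myh3 and Myh8 were nearly silent in control muscle and on D1, were high on D4 and lower on D7, and were back near the starting level on D14. In control muscle Myh3 was at 0.70, 0.41 and 0.86 TPM, and in WT D1 at 0.37, 0.31 and 0.16. In WT D4 it was at 523.2, 470.6 and 396.7, in WT D7 at 116.3, 109.1 and 61.2, and in WT D14 at 0.82, 3.52 and 0.52. Every WT D4 library was thus above every WT D7 library, and these above every D1 and D14 library. Myh8 was at 0.76, 0.62 and 0.48 TPM in WT D1, at 219.3, 352.3 and 275.1 in WT D4, at 136.3, 71.1 and 30.6 in WT D7 and at 1.15, 2.77 and 0.56 in WT D14. It had the same order of days, without overlap between D4 and D7.

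**Figure D1:**
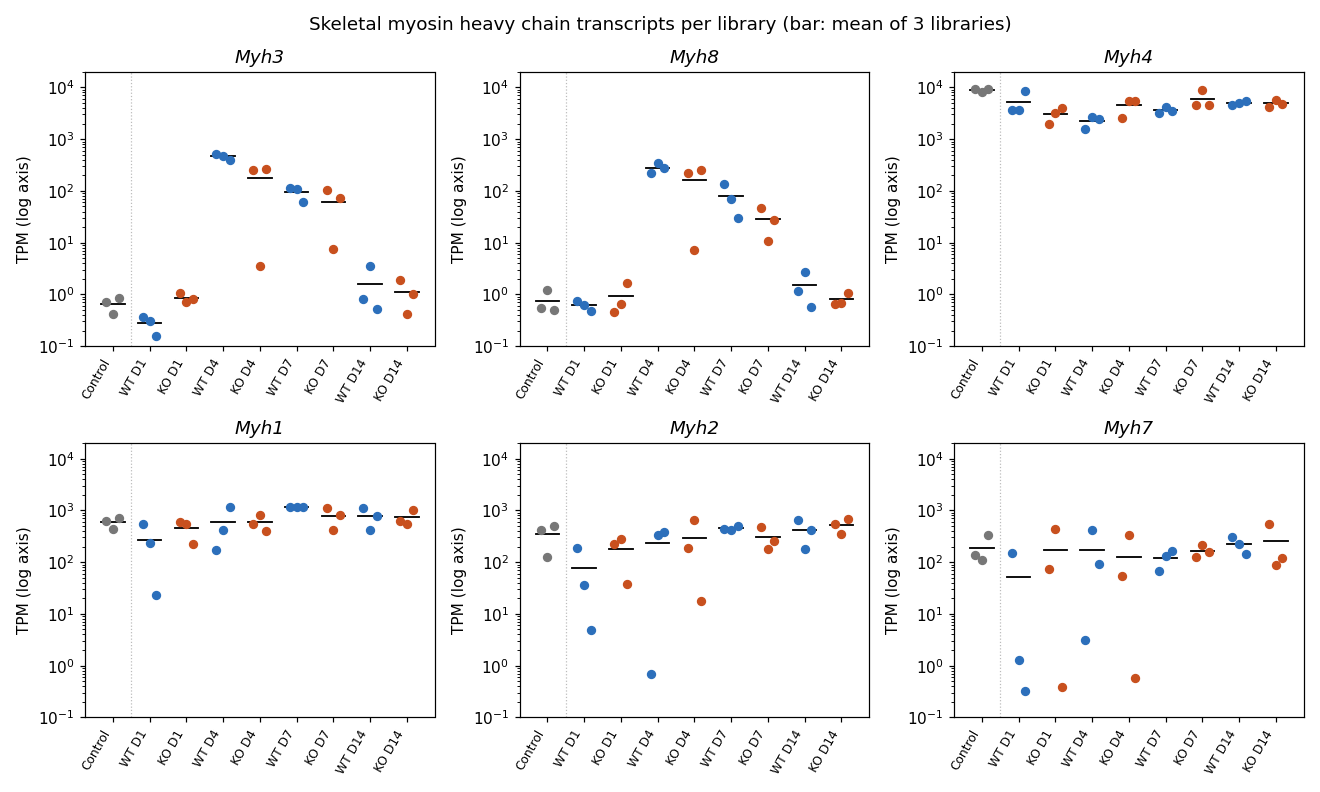
TPM of each of the 6 genes (log axis) in every library of control muscle and of both genotypes on 4 days, points are libraries and bars are means of 3. Myh3 and Myh8 stand above 30 TPM in all WT D4 and D7 libraries and at or under 3.52 TPM on D1 and D14, whereas Myh4 stays above 1560 TPM throughout.

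In KO, Myh3 was at 1.05, 0.71 and 0.82 TPM in the D1 libraries, at 258.9, 3.58 and 267.6 in KO D4, at 105.8, 7.48 and 72.6 in KO D7 and at 1.88, 0.42 and 1.02 in KO D14. Myh8 was at 222.3, 7.29 and 255.2 TPM in KO D4 and at 47.7, 10.8 and 27.1 in KO D7, and at most 1.64 on D1 and D14. The low value on D4 and on D7 was in both cases replicate 2, the library that stood apart. The other KO libraries of D4 lay within the range of WT for Myh8 and below it for Myh3.

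Differences between days were tested on log2(TPM + 1) with limma over 15718 genes, with Benjamini-Hochberg adjustment. From D1 to D4 in WT, Myh3 rose by 8.50 (SE 1.08, adjusted p = 6.90e-05) and Myh8 by 7.43 (SE 0.87, adjusted p = 3.93e-05) on this log2 scale, where 14.6% of genes tested were called higher. Myh4 fell by 1.17 (SE 0.36, adjusted p = 0.0283) where 5.27% were called lower, so 3 of 6 members were called. The Myh4 call was lost without WT D1 replicate 3 (fell by 0.77) or without WT D4 replicate 1 (fell by 0.94), with adjusted p of 0.184 and 0.123, and it was also lost with library quality weights, with no filter on low values and in a fit of only the groups compared. From D1 to D4 in KO, Myh3 rose by 5.20 (adjusted p = 0.00342) and Myh8 by 5.40 (adjusted p = 0.000589), where 7.18% were called higher and 12.2% lower. Without both libraries that stood apart these rises were 7.15 and 7.01, and in a fit of only KO D1 and KO D4 neither was called. Myh3 and Myh8 were chosen with earlier results of these data known, so that counts of calls among them are no support.

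From D4 to D7 none of the 6 was called in WT by limma, where 3.04% of genes were called higher and 9.31% lower, with 2 of 6 at an unadjusted p under 0.05. Myh3 differed by -2.31 (SE 1.08, adjusted p = 0.140) and Myh8 by -2.03 (SE 0.87, adjusted p = 0.113). Both were called without the KO libraries that stood apart, which enter the shared spread, with adjusted p of 0.000397 and 0.00334. In KO none was called, none had an unadjusted p under 0.05, and of all genes 0% were called in either direction. Myh3 differed there by -0.75 (adjusted p = 0.820) with all libraries and was not called without both. Without KO D4 replicate 2 alone Myh3 was called at -2.70 (adjusted p = 0.0251, limma). Without KO D7 replicate 2 alone it differed by 0.37 and was not called. Myh8 differed by -1.62 (adjusted p = 0.566) with all libraries, and by -2.69 (adjusted p = 0.00752) without both. From D7 to D14 in WT, Myh3 fell by 5.32 (SE 1.08, adjusted p = 0.00588) and Myh8 by 4.86 (SE 0.87, adjusted p = 0.00378), where 0.923% of genes were called higher and 30.9% lower. In KO the same step gave -4.33 for Myh3 (adjusted p = 0.0704) and -3.82 for Myh8 (adjusted p = 0.0532), neither of them called, where 0.0827% were called higher and 0.477% lower. Without both libraries the values were -5.45 and -4.37, with adjusted p of 2.54e-07 and 3.11e-05. With median-of-ratios scaling of the libraries in place of TPM, the calls made higher moved from 2292 of 3120 to 1772 of 3856 for D1 to D4 in WT, from 478 of 1941 to 928 of 1830 for D4 to D7 in WT and from 145 of 5000 to 824 of 2190 for D7 to D14 in WT, while for D7 to D14 in KO they moved from 13 of 88 to 127 of 433. A call in one genotype and not in the other is no difference between them, and the test of that difference is given below.

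The 6 genes were then read as shares of their summed TPM within a library, which shows the mix of chains regardless of how much of the RNA is from fibres. In control muscle Myh4 held 88.7%, 92.3% and 86.0%, Myh1 5.02% to 6.42%, Myh2 1.44% to 4.60% and Myh7 1.23% to 3.00%, and Myh3 with Myh8 held 0.0142% ± 0.00362 (SD, n = 3). In WT D4 Myh3 and Myh8 together held 29.9%, 17.7% and 14.1%, and in WT D7 4.94%, 2.98% and 1.68%. These shares set the newly made chains beside the adult ones within each library. A lower share of Myh3 and Myh8 can come from less of them or from more of the adult chains. The share alone cannot tell these apart. In KO D4 Myh3 and Myh8 together held 12.5%, 0.152% and 8.07%, all below the WT libraries, and in KO D7 2.39%, 0.185% and 1.68%. WT D4 replicate 1 was highest in this share and held the least summed TPM of the 6 genes of all libraries, 2480 TPM. Across both genotypes, the Myh3 share rose by 8.40 percentage points from D1 to D4 and the Myh8 share by 5.32, each at the smallest p that the exact permutation of days within genotype can give (two-sided exact p = 0.005, unadjusted). From D7 to D14 they differed by -1.34 and -0.93 points (two-sided exact p = 0.005 for both). From D4 to D7 the values were -7.06 and -4.39 points (two-sided exact p = 0.02 for both). Without KO D4 replicate 2 they were -7.95 and -5.18 points (two-sided exact p = 0.005 for both). The Myh4 share differed by -18.3 points from D1 to D4 (two-sided exact p = 0.045, and 0.055 without both libraries). Within this step 6 shares were tested, and shares of one whole are not independent.

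**Figure D2:**
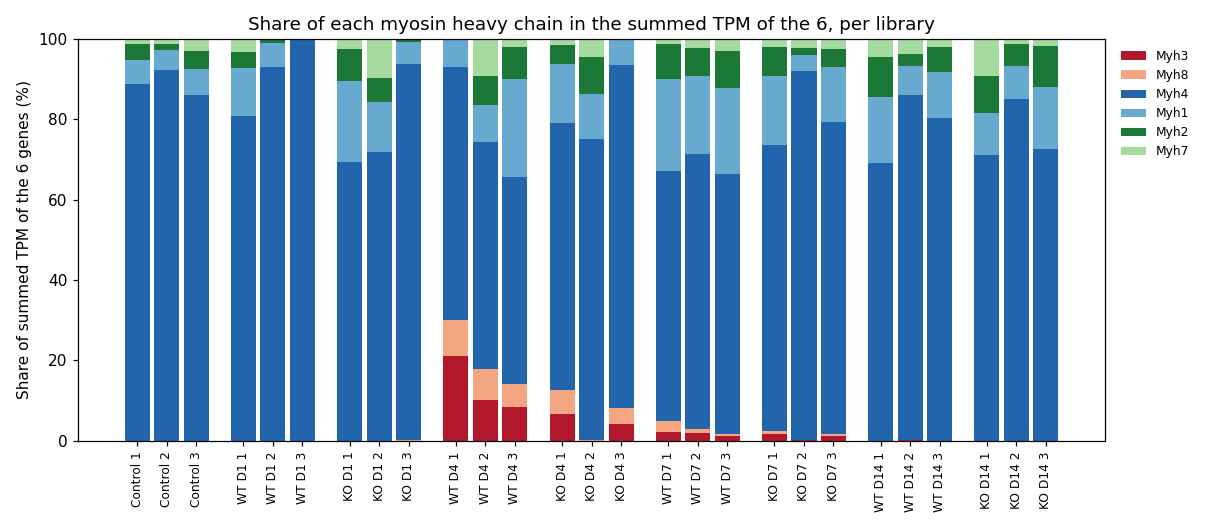
Share of each of the 6 genes in their summed TPM (percent, stacked to 100) in each of the 27 libraries, 1 bar per library. Myh3 and Myh8 take 14.1% to 29.9% of the bar in WT D4 and 0.152% to 12.5% in KO D4, and Myh4 takes the largest part of every bar.

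Between genotypes, none of the 6 genes was called by limma on any day. On D4 all 3 KO libraries were below all 3 WT libraries for Myh3, with means of 177 ± 150 TPM in KO and 463 ± 63.5 in WT (SD, n = 3). The difference KO minus WT was -2.75 (SE 1.08, 95% interval -5.01 to -0.50, adjusted p = 0.212), and -0.80 without both libraries that stood apart (adjusted p = 0.866). For Myh8 on D4 it was -1.83 (SE 0.87, 95% interval -3.66 to -0.01, adjusted p = 0.219) and -0.22 without both. Myh4 on D4 was at 2566, 5362 and 5539 TPM in KO and at 1564, 2631 and 2448 in WT, where 1 KO library lay inside the WT range, with a difference of 0.97 (SE 0.36, 95% interval 0.21 to 1.73, adjusted p = 0.212) and of 0.80 without both. These 3 genes were at an unadjusted p under 0.05, as were 3568 of the 15718 genes tested, while 0% of genes were called on D4. Summed leukocyte markers were 2570 to 5283 TPM in WT D4 and 432.5 to 3601 in KO D4, and the median of all genes tested was -0.28. Their part in the difference was not tested. The libraries of the 2 genotypes did not overlap for 1 of 6 members on D4, against 14.0% of all genes.

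Between the genotypes on D1, the libraries were free of overlap for Myh3, which was at or under 1.05 TPM in all of them, against 6.71% of all genes, and 0.00636% of genes were called. On D7 they did not overlap for Myh4 and Myh1, against 16.5% of all genes. Myh4 was at 4568, 9085 and 4594 TPM in KO D7 and at 3182, 4141 and 3532 in WT D7, with a difference of 0.68 (SE 0.36, adjusted p = 0.776) and of 0.35 without both libraries. Myh1 was at 1091, 410.2 and 816.1 TPM in KO D7, and at 1173, 1170 and 1181 in WT D7, with a difference of -0.72 (SE 0.81, adjusted p = 0.776) and of -0.32 without both. On D14 none of the 6 was free of overlap, against 8.42% of all genes, and 0% were called on D7 as on D14. Myh4 was then at 4208, 5712 and 4864 TPM in KO and at 4590, 4978 and 5576 in WT. Averaged over the 4 days, the differences were -0.90 for Myh3, -0.86 for Myh8 and 0.22 for Myh4 (adjusted p = 0.861 for all 3, limma), where 0.00636% of genes were called and none of the 6 was at an unadjusted p under 0.05. Without both libraries these averages were -0.13, -0.32 and 0.098. Whether the genotype difference depended on the day was called for 0% of genes, and Myh4 had the lowest p of the 6 (unadjusted p = 0.0168, adjusted p = 0.527, limma F test).

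**Figure D3:**
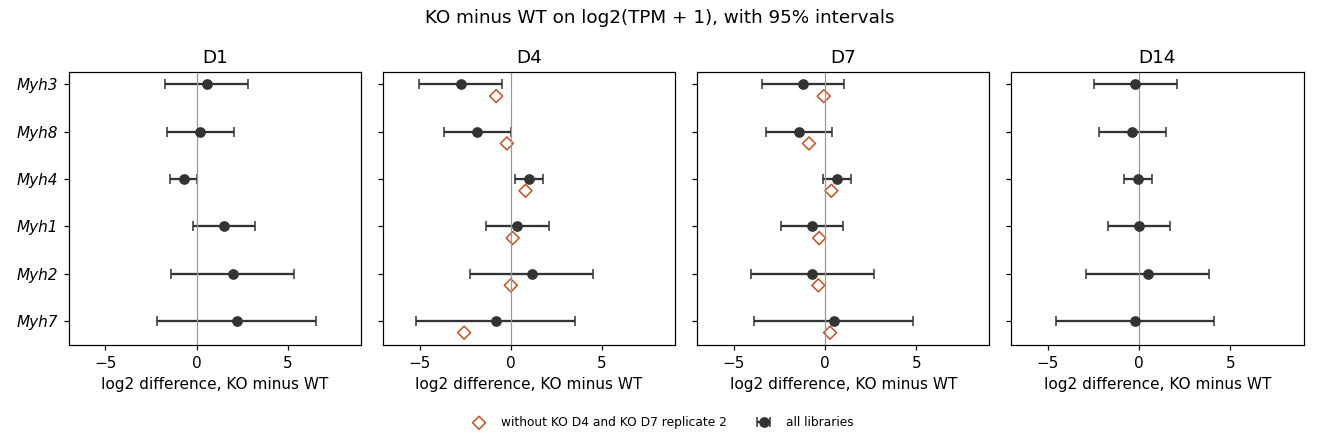
Difference KO minus WT on log2(TPM + 1) for each gene on each day, filled points with 95% intervals from limma, and open diamonds for the same difference without KO D4 and KO D7 replicate 2. On D4 the Myh3 value moves from -2.75 to -0.80 and the Myh8 value from -1.83 to -0.22, whereas the Myh4 value moves from 0.97 to 0.80.

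For the shares, the mean of the KO minus WT differences over the 4 days was -2.57 percentage points for Myh3 (two-sided exact p = 0.0139 of permuting genotype within each day) and -1.29 for Myh8 (two-sided exact p = 0.0136), both unadjusted and among 6 shares tested. Without both libraries the values were -2.01 (exact permutation p = 0.147) and -0.85 (exact permutation p = 0.0668), so that these differences rest in part on the libraries that stood apart. Without WT D4 replicate 1 they were -1.59 and -1.11 (exact permutation p = 0.0619 and 0.0634). The Myh3 difference had an exact permutation p of 0.0652 without KO D4 replicate 3, and the Myh8 difference 0.0583 without WT D4 replicate 2. As differences of log2 shares the values were -0.80 for Myh3 and -1.02 for Myh8 (two-sided exact permutation p = 0.386 and 0.109). With replicate number as a block, the exact permutation p was 0.0508 for Myh3 and 0.0132 for Myh8. By day, the Myh3 difference was 0.018, -9.56, -0.75 and -0.0091 points on D1, D4, D7 and D14. The Myh8 difference was 0.010, -4.13, -1.03 and -0.012 points, so that the means over days come mostly from D4. On D4 the Myh3 share was 13.2% ± 6.90 in WT and 3.64% ± 3.37 in KO (SD, n = 3), and 5.43% in KO without both libraries. A single day cannot give an exact p below 0.1 with 3 libraries against 3. The Myh4 share was 57.1% ± 5.76 in WT D4 and 75.7% ± 9.45 in KO D4 (SD, n = 3), with no overlap, and over the 4 days differed by 4.66 points (two-sided exact p = 0.307). Shares of Myh1, Myh2 and Myh7 differed by -1.55, 0.27 and 0.49 points (two-sided exact p from 0.558 to 0.839).

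The balance of the IIa to the IIb chain was given as the log2 ratio of Myh2 to Myh4, since the study stained fibres of these types. It was -4.89 ± 0.96 in control muscle and -7.13 ± 3.11 in WT D1, -5.17 ± 4.07 in WT D4, -2.98 ± 0.26 in WT D7 and -3.77 in WT D14 (range -4.81 to -2.80), with SDs over n = 3. In KO it was -4.45 ± 1.94 at D1, -4.99 ± 2.79 at D4, then -4.35 ± 1.21 in the D7 libraries and -3.26 ± 0.64 in those of D14 (SD, n = 3). On D7 the ratio was 1.36 lower in KO on average, and on D1 2.68 higher, with overlapping libraries on both days. In WT D1 replicates 1, 2 and 3 the ratio was -4.31, -6.61 and -10.47. Without KO D7 replicate 2 the D7 difference was -0.71. Averaged over days it was 0.50 higher in KO (two-sided exact p = 0.594), and without WT D4 replicate 1 it was 0.087 lower.

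The adult chains differed in how much they varied between libraries of a group. Myh4 stood first in every library, and its highest library of a group was 1.16 to 2.33 times the lowest. Myh7 varied by 464-fold within WT D1, by 1124-fold within KO D1, by 136-fold within WT D4 and by 580-fold within KO D4, but by 1.73-fold to 6.22-fold in the 4 groups of D7 and D14. It was at 153, 1.30 and 0.33 TPM in WT D1, at 72.4, 438 and 0.39 in KO D1, at 3.12, 423 and 93.0 in WT D4 and at 54.2, 331 and 0.57 in KO D4. Hence 5 of the 12 libraries of D1 and D4 held under 4 TPM of the slow chain, in both genotypes, while all control and later libraries held 67.4 TPM or more. Myh2 was at 187, 36.2 and 4.98 TPM in WT D1, at 228, 279 and 37.5 in KO D1, at 0.68, 340 and 378 in WT D4 and at 189, 655 and 17.9 in KO D4. In each of these 4 groups its lowest library was the one with the lowest Myh7. Myh1 was at 1173, 1170 and 1181 TPM in WT D7 and varied by 23.3-fold in WT D1. In WT D7 the order of mean levels was Myh4, Myh1, Myh2, Myh7, Myh3 and Myh8, where Myh7, Myh3 and Myh8 overlapped and the first 3 did not. In control muscle the order was Myh4, Myh1, Myh2 and Myh7, with Myh1 and Myh2 overlapping as did Myh2 and Myh7, and Myh8 and Myh3 last. With this spread the 95% interval of KO minus WT on D4 ran from -5.19 to 3.51 for Myh7 and from -2.21 to 4.51 for Myh2, so that sizeable differences in either direction were not detectable for these chains.

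The same 5 libraries were low in the slow light chains. Myl2, the slow ventricular regulatory light chain, was at 12.4 and 1.44 TPM in WT D1 replicates 2 and 3, at 8.96 in KO D1 replicate 3, at 0.92 in WT D4 replicate 1 and at 1.84 in KO D4 replicate 3, against 93.9 or more in every other injured library. The slow troponins behaved otherwise on D4. Tnni1, slow troponin I, was at 1134 TPM in WT D4 replicate 1 and 908.8 in KO D4 replicate 3, where Myh7 was at 3.12 and 0.57, and it was at 2.68 to 89.9 in WT D1. What part the muscle or piece of muscle taken had in this spread was not tested.

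The genes whose log2 level was most like each member over the 24 injured libraries, among 9502 with a mean of at least 5 TPM, are given as a description of points that share days and libraries. Myh3 was most like Igf2 (Pearson r 0.988), a growth factor of fetal tissue and regenerating muscle, then Ripply1 and Tgfb3. Myh8 was most like Igf2 (0.994), then the embryonic light chain Myl4 (0.978) and Mmp11. Myh4 was most like Actn3 (0.969), the Z disc protein of fast fibres, then the fast troponins Tnnt3 (0.945) and Tnnc2 (0.941). Myh1 was most like Mybpc1 (0.925), the slow type of myosin binding protein C, and Myh2 was most like Smtnl1 (0.971) and Myl2 (0.945). Myh7 was most like the slow light chains Myl2 (0.960) and Myl3 (0.951). Among the members, Myh3 and Myh8 had an r of 0.987, Myh2 and Myh7 of 0.846 and Myh1 and Myh2 of 0.829, whereas Myh4 had -0.449 with Myh3 and 0.0033 with Myh7.

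**Figure D4:**
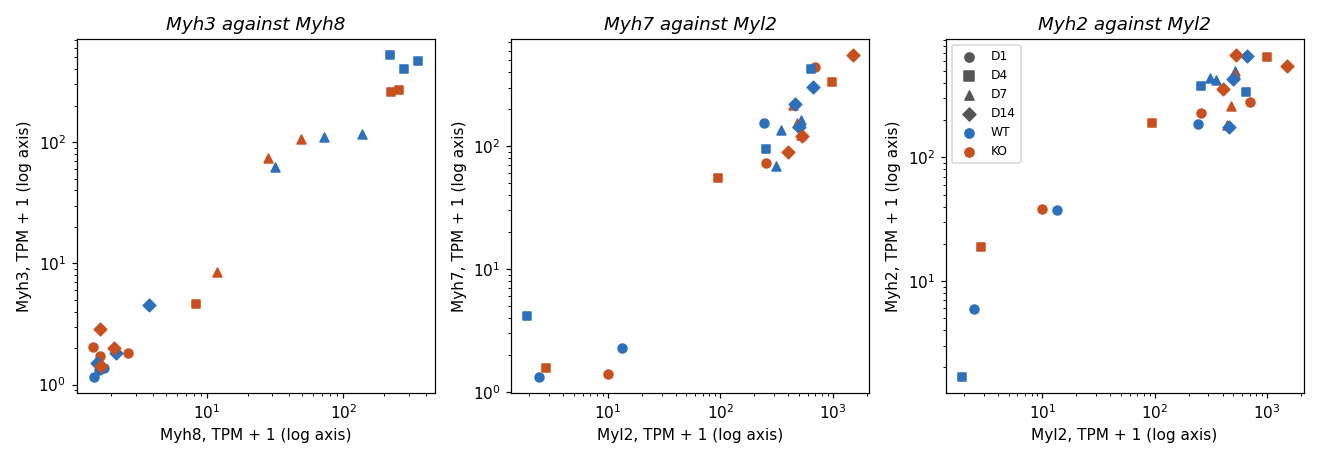
Level of Myh3 against Myh8, of Myh7 against Myl2 and of Myh2 against Myl2 as TPM + 1 (log axes) in the 24 injured libraries, with colour for genotype and shape for day. Myh3 and Myh8 rise together (r 0.987 on log2), and the 5 libraries low in Myh7 sit at the lower left of the second panel, all from D1 or D4.

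Control muscle could be tested against WT D1 alone, since both are in the same table. Whether a control and a WT D1 library came from 1 mouse is not given in the sources used here, and the fit took them as unpaired. Myh7 was at 134.7, 108.4 and 329.7 TPM in control and was 4.45 lower on D1 on the log2 scale (SE 1.54, adjusted p = 0.0346). Myh2 was at 427.9, 127.1 and 505.8 in control and was 3.14 lower (SE 1.10, adjusted p = 0.0359). Neither was called with no filter on low values, nor was Myh7 with library quality weights or quantile normalization. So 2 of 4 members tested were called lower, where 5.64% of 13041 genes were called lower and 55.4% higher. With median-of-ratios scaling the calls made higher moved from 7229 of 7965 to 2693 of 5509. Each call of a member rested on single libraries. Without control replicate 1 or 3, or without WT D1 replicate 2, neither was called, with Myh7 at -4.61, -3.97 and -3.57 and Myh2 at -2.89, -2.76 and -3.19, and without control replicate 2 Myh7 was not called (-4.77, adjusted p = 0.0771). Myh4 was at 9396, 8139 and 9455 TPM in control and at 3753, 3648 and 8509 on D1, with a difference of -0.88 (adjusted p = 0.0639), and -1.28 without WT D1 replicate 3 (adjusted p = 0.000175). Myh1 differed by -1.99 (adjusted p = 0.0969), by -0.70 without that library (adjusted p = 0.0410) and by -2.94 without WT D1 replicate 1 (adjusted p = 0.0239). Myh3 and Myh8 did not pass the filter there. With replicate number as a block, Myh4 and Myh1 were called too (adjusted p = 0.0400 and 0.0291, limma), though no label ties a number to an animal. On D14 Myh4 was at 4208 to 5712 TPM in both genotypes, below every control library, a level set across separately made tables with no test. The study describes separate sequencing batches without placing these WT D1 libraries in one, so a batch cannot be told apart from the injury here, nor from the genotype on D1.

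Other genes of the contractile apparatus were described by lists. In them, rose and fell stand for genes called in that direction, and genes not called may have moved the same way. From D1 to D4, 14.6% of all genes tested were called higher and 5.27% lower in WT, and 7.18% and 12.2% in KO. Of 9 new fibre genes, 8 rose from D1 to D4 in WT, with a median of 3.45 over the list against 0.17 over all genes tested. Mymk, which drives the fusion of myoblasts, rose by 6.80 and the cardiac and embryonic troponin T gene Tnnt2 by 6.23 (adjusted p = 3.44e-05 and 0.000192, limma). In KO 5 of 9 rose and 8 were above zero, with a median of 2.25 against -0.15, and Mymk rose by 4.17 (adjusted p = 0.00176, limma). Without both libraries that stood apart 8 of 9 rose in KO, with a median of 2.74 against -0.013, and Mymk by 5.66. Of all 15649 genes then tested, 2463 were called in either direction. Markers of other cells moved in the same step. In WT 3 of 6 markers of fibro-adipogenic progenitors rose, with a median of 1.07 and a summed level of 1309 to 2283 TPM on D1 and 6484 to 7272 on D4, as did 2 of 4 markers of smooth muscle and pericytes, with a median of 0.86. Their part in the list's rise was not tested. Of 7 myosin light chains 3 rose in WT, with a median of 1.21, including Myl4 by 6.45 and Myl6b by 4.67 (adjusted p = 6.92e-05 and 0.000192, limma). In KO 2 of 7 rose, and Myl4 by 4.52 (adjusted p = 0.00138, limma). Of 8 slow fibre genes other than heavy chains 6 rose in WT, with a median of 3.70, including Tnni1 by 6.60 and Tnnc1 by 5.34, and 2 of 8 in KO, where Tnni1 rose by 3.79 (not called without KO D1 replicate 3 at 2.41 or without KO D4 replicate 3 at 3.49). Myl2 and Myl3 did not pass the test in either genotype. On D1 the 8 slow fibre genes summed to 1463, 179.5 and 74.9 TPM in WT and to 1144, 3281 and 196.7 in KO. All 8 were above zero for KO minus WT on D1, with a median of 1.89 and none called. The WT and KO counts of rises therefore do not start from the same D1 values. Of 12 mature fibre genes other than myosins 6 fell in WT, with a median of -0.80, including the calcium buffer Pvalb by -1.62 and creatine kinase Ckm by -1.32. Both calls were lost without WT D1 replicate 3 (adjusted p = 0.0658 for Pvalb and 0.105 for Ckm, limma) or without WT D4 replicate 1 (adjusted p = 0.0565 and 0.101). In KO 2 of these 12 were called higher and none lower, with all 12 above zero and a median of 0.35. Without both libraries that stood apart 2 were called higher and 7 of 12 were above zero. The median was then 0.098, against -0.013 over all genes.

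From D4 to D7 in WT, 6 of 9 new fibre genes fell, with a median of -2.55 against -0.24 over all genes, Mymk among them at -3.27. In this step 3.04% of all genes were called higher and 9.31% lower. Of the 7 light chains 1 rose and 1 fell, the latter being Myl4 at -2.65. All 12 mature fibre genes were above zero, and 1 of them was called, Pvalb at 2.06. The Mymk call was lost without WT D4 replicate 1 (-2.96), WT D7 replicate 2 (-3.18) or WT D7 replicate 3 (-2.81), and that of Pvalb without WT D4 replicate 1 (1.74). The Myl4 call held only without WT D7 replicate 1 and was lost without any other WT library of these days (-2.71 to -2.15). From D7 to D14 in WT, 6 of 9 new fibre genes fell, with a median of -1.77 against -0.45 over all genes, including Tnnt2 at -3.78 and Mymk at -3.32. Of the light chains 3 of 7 fell, including Myl4 at -4.41 and Myl6b at -3.18. In this step 30.9% of all genes were called lower. The calls of Tnnt2 and Mymk were lost without WT D14 replicate 3 (-3.49 and -3.05) or WT D7 replicate 1 (-3.16 and -2.77), and that of Myl6b without WT D14 replicate 3 (-2.92). In KO 2 of 9 new fibre genes fell, where 0.477% of all genes were called lower, and none of the 9 was above zero. Myog, a transcription factor of myoblast differentiation, was among the 2 at -3.05. Its call was lost without any single KO D14 library, KO D7 replicate 1 or KO D7 replicate 3 (-3.15 to -2.87). None of the light chains passed the test. Without both libraries 6 of 9 new fibre genes and 2 of 7 light chains fell in KO, where 2084 of 15649 genes were called in either direction. In the same step all 8 leukocyte markers fell in WT, with a median of -2.10, and in KO the median was -1.29 with none called, or -1.68 with 5 of 8 called lower without both.

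Between genotypes on D4 no gene of these lists was called. The median KO minus WT was -1.47 for the 9 new fibre genes and -1.12 for the 8 leukocyte markers, against -0.28 over all genes, with 1 of 9 and 0 of 8 above zero. It was 0.75 for the 12 mature fibre genes, all 12 above zero. Without both libraries that stood apart the medians were -0.46, -0.31 and 0.47, against -0.11 over all genes, with the same counts above zero. Tnnt2 differed by -2.22, Mymx by -2.37, Pvalb by 1.18 and the myosin light chain kinase Mylk2 by 1.18 (adjusted p = 0.212 for each, limma). Without both libraries these 4 differences were -0.46, -0.73, 0.70 and 0.82 (adjusted p from 0.866 to 0.868, limma). Of 20 fibre type regulators, 2 were called higher and 1 lower from D1 to D4 in WT, where 14.6% of all genes were called higher and 5.27% lower. Their median was 0.18 against 0.17 over all genes. The antisense RNA Myhas overlaps Myh1 and does not reach the GENCODE start of Myh4, and its values may hold reads of Myh1. It was at 76.6, 86.7 and 72.7 TPM in control and was 1.65 lower on WT D1 (adjusted p = 0.00402, limma). It rose by 1.26 from D4 to D7 in WT (adjusted p = 0.0269) and by 1.30 from D1 to D4 in KO (adjusted p = 0.0146, limma), and it differed by 0.73 between genotypes on D4 (adjusted p = 0.217, limma). The KO rise of Myhas was 1.04 without KO D4 replicate 2 (adjusted p = 0.0657, limma) and 1.19 without KO D1 replicate 3 (adjusted p = 0.0718), and the WT rise was not called without WT D4 replicate 1 (1.09), WT D7 replicate 2 (adjusted p = 0.0960) or WT D7 replicate 3 (adjusted p = 0.0929). Of the other sarcomeric heavy chains, Myh6, Myh7b and Myh13 were each at or under 5.02 TPM in every library.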

How the data were processed

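Paired-end RNA-seq libraries of mouse muscle had been prepared by the authors with a SMARTER kit for mRNA. The authors deposited TPM values per gene and library in 2 tables, 1 with the 24 injured libraries and 1 with 3 control and the 3 WT D1 libraries, which were quantified for each table separately. The build mm10 is from the submitters' processing notes, and the aligner and the counting tool are not given in the sources used here. TPM keeps no read number, so depth is unknown and no counting interval or detection limit was computed. The authors' mean and length columns were not used.

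Genes at 1 TPM or more in at least 3 libraries were tested (15718 in the injured and 13041 in the control table). Values were taken as log2(TPM + 1), which understates changes of low genes, and fitted with limma 3.58.1 in R 4.3.3 as 8 group means (2 in the control table), empirical Bayes with a variance trend and Benjamini-Hochberg adjustment over all genes tested, called at 0.05. Shares and ratios were tested by exact two-sided permutation (Python 3.11.15, numpy 2.4.6). Both procedures were tested on simulated data. Coding sequences of GENCODE M21 were aligned with Biopython 1.88. Tests were made within 1 table, and p-values measure only the spread between libraries.

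The 6 genes and the lists were chosen with earlier results of these data known. All 6 were described. Of each other list up to 4 genes a comparison could be named, the pair with the highest and the pair with the lowest difference, and for each member the 3 genes with the highest Pearson r over the injured libraries. Alternatives were the pseudocount, the filter, 3 scalings, library weights, a replicate block, fits of only the groups compared, another denominator of the shares and leaving out each library. Leaving out KO D4 replicate 2 and KO D7 replicate 2 together was added after seeing the data, since both had low Myh3 and Myh8 and fewer genes detected, as was naming Myh6, Myh7b and Myh13.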

Additional observations from a re-analysis of the deposited data

How the results depend on the processing

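All values under the alternatives were recomputed, 1958 in all for 105 results, of which 1737 kept direction and side of the threshold, or, for a count, stayed within 1.5 times the reported one. The rises of Myh3 and Myh8 from D1 to D4 and their falls from D7 to D14 in WT passed the test under every alternative run. The cause of the changes below was not tested. TPM limits small differences in that the read number is unknown.

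The count of members called from D7 to D14 in KO went from 0 to 2 with median-of-ratios scaling, quantile normalization, the 50 most abundant genes removed, library quality weights, only the groups compared, or both doubted libraries left out, to 1 with a pseudocount of 0.1, and ranged from 0 to 2 with single libraries left out (2 without KO D7 replicate 2). From D4 to D7 in KO it was 1 without both and ranged from 0 to 2 (2 without KO D4 replicate 2). From D4 to D7 in WT it was 2 without both or with only the groups compared and 5 with library quality weights, which gave 5 from D1 to D4 in WT. From D1 to D4 in KO it was 0 with only the groups compared. For WT D1 against control, 2 became 0 with no filter on low values, 1 with quantile normalization and 4 with the 50 most abundant genes removed, and ranged from 0 to 4 with single libraries left out.

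Whether replicate numbers pair the libraries is not given in the labels, and correlations over groups of 3 libraries cannot decide it. Deviations of same-numbered WT and KO libraries of a day correlated above 0.1 in 4 of 12 pairs (range -0.40 to 0.39). Those of control and WT D1 did so in 0 of 3 (range 0.0021 to 0.061). With the replicate block, the count for WT D1 against control was 4 (adjusted p = 0.0291 for Myh1, 0.00714 for Myh2, 0.0400 for Myh4 and 0.00757 for Myh7, limma), the exact permutation p of the Myh3 share between genotypes was 0.0508 and that of the Myh8 share 0.0132, the 2 shares past the adjusted threshold between genotypes became 0, the 4 between neighbouring days became 0 (the block leaves few assignments), and no other count of members called changed. The 2 shares between genotypes also became 0 for log2 shares and without both doubted libraries, and ranged from 0 to 2 with single libraries left out.

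The share of Myh3 and Myh8 together differed by -3.87 points between genotypes over the days, by -2.87 without both, by -0.90 as a log2 difference, and from -4.67 to -2.70 with single libraries left out. The log2 ratio of Myh2 to Myh4 ranged from -0.087 to 0.90, the Myh2 share from -0.36 to 0.84 and the Myh7 share from -0.21 to 1.16, and the Myh1 share differed by 0.18 as a log2 difference. KO minus WT on D4 ranged from -0.32 to 1.06 for Myh1, from -1.43 to 2.55 for Myh2 (-0.56 with library quality weights, -0.0027 without both) and from -2.70 to 1.30 for Myh7. On D4 library quality weights gave -0.076 for Myhas and -0.047 for Pvalb, and over the days -0.24 for Myh4. On D14 the range was -0.50 to 0.28 for Myh3 and -0.15 to 0.067 for Myh4, and on D1 -0.058 to 0.37 for Myh8 (-0.022 with library quality weights). From D4 to D7 in KO Myh3 ranged from -2.70 to 0.37. From D7 to D14 in KO Myh4 ranged from -0.40 to 0.094, with 0.094 without both, 0.044 with library quality weights and 0.0092 with median-of-ratios scaling.

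Median-of-ratios scaling moved the median of all genes from -0.45 to 0 for D7 to D14 in WT and from 0.66 to -0.010 for WT D1 against control.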
